A study of Mus musculus with 12 samples.

Results

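The genes described here are the Wnt ligands, the Frizzled and LRP receptors, the secreted Wnt antagonists and a few nuclear and feedback genes of the pathway. The rule uses gene symbols alone: patterns for Wnt, Fzd, Sfrp and Dkk symbols and the symbols Frzb, Wif1, Lrp5, Lrp6, Axin2, Lef1, Tcf7, Sost and Notum. Of 26728 gene names found in both count tables, 38 were members: 14 ligands, 11 receptors, 10 antagonists and 3 nuclear or feedback genes. A further member, Wnt3, was listed at day 14 only, with 2 reads in all. The other names of the rule, Dkk1, Fzd10, Sost, Wnt2, Wnt3a, Wnt8a and Wnt9b, were not analysed here.

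RNA was sequenced from mouse vascular smooth muscle cells (VSMC), labelled primary and taken from the aorta, that were wild type (WT) or carried a knockout (KO) of NR4A3, an orphan nuclear receptor that binds DNA as a transcription factor. The series title names vascular calcification as its subject. Cells were grown in DMEM/F12 with fetal bovine serum, penicillin-streptomycin and 10 mM beta-glycerophosphate (beta-GP), a phosphate donor used to drive mineral deposition in culture. The 4 groups of 3 libraries were WT at day 1, KO at day 1, WT at day 14 and KO at day 14. The culture protocol gives beta-GP for all 4 groups, while the treatment label reads none for both WT groups and beta-GP for both KO groups, so a difference by genotype and a difference by medium cannot be told apart. How the knockout was made, which part of the gene it removes, and the strain and age of the mice were not given in the sources used here. The labels do not tell whether the 3 libraries of a group came from separate animals or cultures. The p-values therefore reflect only how far these libraries differ from each other, which may be technical spread.

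Wnt proteins are secreted, lipid-modified signals that bind a Frizzled receptor. Together with the co-receptor LRP5 or LRP6 they stop the breakdown of beta-catenin, which then acts with the DNA-binding factors TCF7 and LEF1 on target genes (the canonical branch), while other ligands, with WNT5A as the best known, act mostly through cell polarity and calcium signals. Secreted antagonists hold the pathway in check: SFRP proteins, FRZB and WIF1 bind the ligands, and some DKK proteins, DKK2 among them, bind the LRP co-receptors. In vascular smooth muscle the pathway is known for its part in proliferation, in the change of cell phenotype and in osteogenic change during calcification.

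Library totals ranged from 13847020 to 30102958 reads, with the deepest group being WT at day 1 (24927912 to 30102958) and the others lying between 13847020 and 20089520. Reads of Nr4a3, the targeted gene, stood at 4.25 ± 0.385 CPM (the read count relative to the library total after TMM scaling, mean ± SD, n = 3) in WT against 2.08 ± 0.235 CPM in KO at day 1, and at 237 ± 19.6 against 49.6 ± 13.6 CPM at day 14. They were lower in KO at each day (log2 fold change -1.02 ± 0.21, SE, edgeR adjusted p = 8.6e-04, and -2.27 ± 0.19, adjusted p = 2.6e-05) and not absent. Replicates of each group differed beyond sampling noise (chi-square per gene of 2.91 to 51.5). The top values, 36.2 and 51.5, were those of WT replicate 1 of day 14 against its replicates. This library stood apart. Counts over all tested members and over pathway lists for KO against WT at day 14 that change without it are given both ways. So are those for KO at day 1 against WT at day 14. Counts by role, counts of markers and the other counts rest on all libraries unless stated. The KO libraries of day 1 were close to the WT libraries of day 14. In 1 fit of all 12 libraries, 1562 of 15973 genes tested (9.78%) differed between them, against 8353 between KO and WT at day 1. Without WT replicate 1 of day 14, the share that differed between them was 33.7%. Fitted on the 6 libraries of day 1 alone, 60.8% of 15365 genes differed between KO and WT. Nr4a3 separated those groups, at 2.08 ± 0.235 against 237 ± 19.6 CPM. Whether libraries were exchanged between groups before deposit was not tested, and the sign of every KO against WT difference given here rests on the labels. Of the smooth muscle markers, Acta2 was abundant (276 ± 19.3 CPM in WT against 668 ± 33.9 in KO at day 1, and 662 ± 108 against 1628 ± 190.2 at day 14) and so was Des, while the defining genes Tagln and Myh11 were near 0 (at most 11 and 31 reads in a group) and Myocd had 0 reads in WT at day 1. Their 10 markers summed to 1046 to 1106 CPM in WT against 1349 to 1557 in KO at day 1, and 1181 to 1950 against 2069 to 2477 at day 14. Of 7 tested, 4 were higher and 1 lower in KO at day 1, and 2 higher and 3 lower at day 14. Over all genes, 60.8% were called at day 1 (30.6% higher, 30.2% lower) and 46.4% at day 14 (22.7% higher, 23.7% lower). Myl9, a myosin light chain gene, was the only smooth muscle marker tested that changed sign (4.17 ± 0.15 and -1.41 ± 0.24, edgeR adjusted p = 1.0e-10 and 0.00128). Acta2 (1.28 and 1.28) and Cnn1 (1.49 and 1.66) were higher in KO at both days, and Smtn was lower (-0.90 and -0.75). Lmod1 was called at day 1 only, Des at day 14 only, and Mylk at neither. Summed levels of 9 adventitial fibroblast markers were 494 to 505 CPM in WT against 208 to 318 CPM in KO at day 1, and 475 to 659 against 685 to 765 CPM at day 14. Adipocyte markers summed to 97.3 to 112 CPM in WT against 323 to 406 CPM in KO at day 1, and 330 to 565 against 979 to 1155 CPM at day 14, nearly all of it Lpl, while Adipoq had at most 4 reads in a group. Fabp4, a fatty acid carrier of fat cells, was higher in KO at day 1 (5.56 ± 0.38, adjusted p = 5.6e-08) and lower at day 14 (-1.07 ± 0.23, adjusted p = 0.00496). Endothelial markers summed to 13.7 to 16.2 CPM in WT against 5.12 to 6.72 in KO at day 1, and 9.50 to 10.4 against 7.42 to 8.54 at day 14. Macrophage markers summed to 60.2 to 65.7 against 60.7 to 73.0 CPM at day 1, and 64.4 to 95.8 against 50.3 to 54.3 at day 14. Schwann markers summed to 15.3 to 17.0 against 19.4 to 20.2 CPM at day 1, and 16.8 to 33.1 against 4.58 to 7.30 at day 14. Of 2 endothelial markers tested at day 1, 1 was higher and 1 lower in KO. At day 14, 0 of 3 were higher and 2 lower. Of 3 macrophage markers at day 1, 2 were higher and 1 lower, and of 4 at day 14, 1 was higher and 1 lower. Of 3 Schwann markers, 2 were higher and 0 lower at day 1, and 0 higher and 2 lower at day 14. The part of these markers in the Wnt results was not tested. In such bulk samples, fewer cells of a type and less RNA per cell cannot be told apart.

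Wnt genes differed between the genotypes at both days, largely in opposite directions, as did most genes of the series called at both days. At day 1, 23 members had enough reads to be tested and 18 of them differed between KO and WT (adjusted p below 0.05 in edgeR's quasi-likelihood test), 11 higher and 7 lower in KO. Over all genes 60.8% were called at day 1, 30.6% higher and 30.2% lower. At day 14, 15 of 25 tested members were called, 4 higher and 11 lower in KO, where 46.4% of all genes were called, 22.7% higher and 23.7% lower. The median size of the log2 fold change over the tested members was 0.72 at day 1 and 0.76 at day 14, against 0.43 and 0.42 over all genes tested. A filter on low reads decided which members were tested, so these figures describe those that passed it and not all 38. Without WT replicate 1, 16 of 26 members were called at day 14, 5 higher and 11 lower, and 60.7% of all genes.

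Of 23 members tested at both days, 13 were called at both, and 10 of these had opposite signs: Wnt4, Wnt5a, Wnt9a, Wnt10a, Wnt10b, Fzd2, Fzd7, Lrp6, Sfrp4 and Tcf7. Fzd1 was higher in KO at both days, and Fzd6 and Wnt7b were lower at both. Opposite signs were the rule across the series as well, with 82.0% of 4729 genes called at both days against 76.9% for the members. A change of the KO effect from day 1 to day 14, tested as an interaction over all 12 libraries, was called for 20 of 26 members, 7 upward and 13 downward, where 60.1% of all genes were called, 29.5% upward and 30.5% downward.

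**Figure D1:**
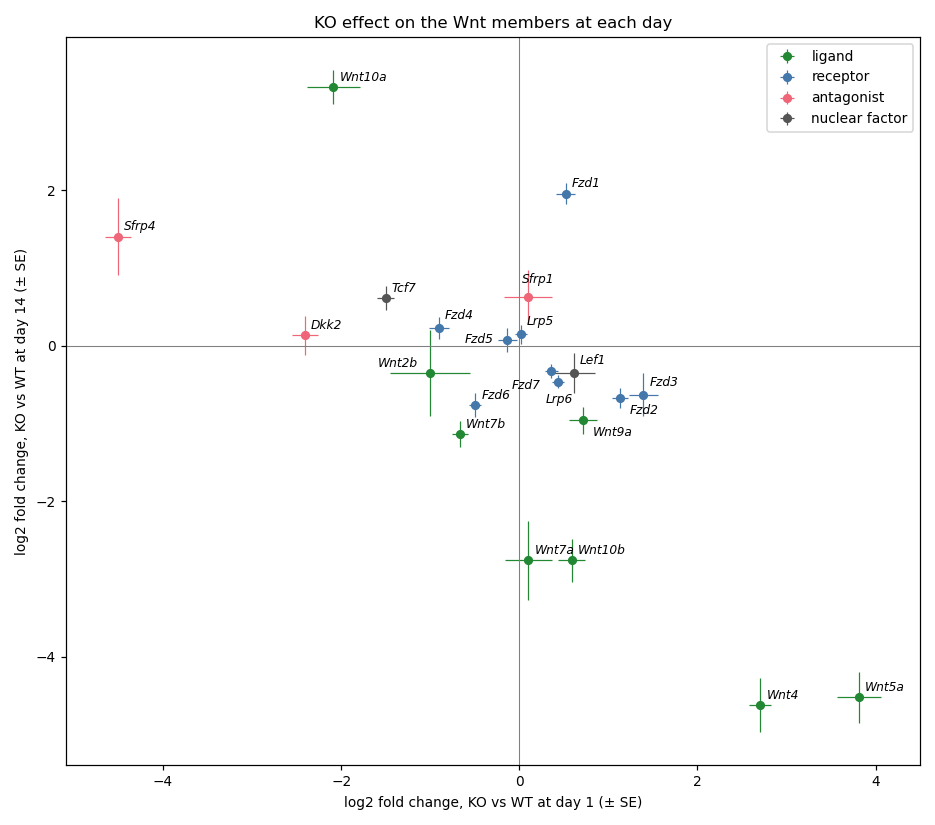
Log2 fold change of KO against WT (± SE) at day 1 on the horizontal axis and at day 14 on the vertical axis, for 22 Wnt members tested at both days, coloured by role. Sfrp2, with 0 reads in WT at day 1, is left out. Wnt4 and Wnt5a lie at the lower right (higher in KO at day 1, lower at day 14), Wnt10a and Sfrp4 at the upper left, and Fzd1 is the called member at the upper right.

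Among the ligands, Wnt4 and Wnt5a had the largest changes. Of 8 ligands tested at day 1, 4 were higher and 2 lower in KO, where 60.8% of all genes were called. At day 14, of 8 tested, 1 was higher and 6 were lower, where 46.4% of all genes were called. Wnt4, a ligand known for its part in kidney and gonad development that can use either branch, stood at 5.54, 5.98 and 5.87 CPM in WT and 34.4, 34.4 and 44 CPM in KO at day 1, and at 26.4, 55.3 and 56.3 CPM in WT and 1.46, 1.76 and 2.37 CPM in KO at day 14. The WT libraries of day 1 and the KO libraries of day 14 were low, and in neither day did the genotypes overlap. In log2 terms Wnt4 was higher in KO by 2.70 ± 0.12 (SE) at day 1 (adjusted p = 1.0e-09) and lower at day 14 (-4.62 ± 0.35, adjusted p = 1.5e-05), a change of -7.30 ± 0.38 from one day to the other (adjusted p = 3.5e-10).

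Wnt5a, the main ligand of the polarity and calcium branch, stood at 0.419, 0.425 and 0.397 CPM in WT and 5.83, 5.56 and 6.19 CPM in KO at day 1, and at 7.0, 12.5 and 10.3 CPM in WT and 0.365, 0.494 and 0.431 CPM in KO at day 14. Like Wnt4, it was low in all WT libraries of day 1 and all KO libraries of day 14, with no overlap with the other groups. For Wnt5a the mean level in the other groups was more than 10 times higher. Between those low groups no difference was called for Wnt5a (KO at day 14 against WT at day 1, 0.05 ± 0.38, adjusted p = 0.935), while Wnt4 lay lower in KO at day 14 (-1.62 ± 0.31, adjusted p = 4.9e-04). The log2 fold change of Wnt5a in KO was 3.82 ± 0.25 at day 1 (adjusted p = 3.3e-08) and -4.52 ± 0.33 at day 14 (adjusted p = 1.2e-05). The low groups rest on few reads, 32 in WT at day 1 and 21 in KO at day 14.

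Wnt10b, a canonical ligand that favours bone over fat formation, and Wnt9a, a ligand of joint and skeletal development, moved the same way by less. Wnt10b stood at 7.84, 6.69 and 5.79 CPM in WT and 9.22, 9.57 and 11.5 CPM in KO at day 1, and at 8.40, 15.2 and 12.9 CPM in WT and 1.64, 1.62 and 2.10 CPM in KO at day 14. Its change in KO was 0.59 ± 0.15 at day 1 (adjusted p = 0.00454) and -2.76 ± 0.27 at day 14 (adjusted p = 6.9e-05). The 3 KO libraries of day 14 were the lowest of all 12. Wnt9a stood at 9.14, 9.66 and 8.17 CPM in WT and 16.8, 11.1 and 16.2 CPM in KO at day 1, and at 15.9, 17.2 and 17 CPM in WT and 10.3, 6.92 and 8.63 CPM in KO at day 14. KO lay above WT at day 1 (0.72 ± 0.15, adjusted p = 0.00136) and below it at day 14 (-0.96 ± 0.17, adjusted p = 0.00182), with no overlap at either day.

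Wnt10a, a close relative of Wnt10b known for its part in tooth and skin development, ran the other way. It stood at 2.73, 2.87 and 3.81 CPM in WT and 0.833, 0.834 and 0.536 CPM in KO at day 1, and at 1.55, 1.26 and 1.19 CPM in WT and 12.9, 11.7 and 16 CPM in KO at day 14. The KO libraries were the lowest of the series at day 1 and the highest at day 14. The log2 fold change in KO was -2.09 ± 0.30 at day 1 (adjusted p = 5.4e-05) and 3.33 ± 0.22 at day 14 (adjusted p = 7.6e-06), and the change between the days was 5.43 ± 0.34 (adjusted p = 3.1e-09).

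Wnt7b, a canonical ligand with a known part in vessel and lung development, was lower in KO at both days. It stood at 26.5, 27.8 and 26.3 CPM in WT and 17.8, 17 and 15.8 CPM in KO at day 1, and at 15.4, 19.3 and 18.7 CPM in WT and 8.46, 6.78 and 9.11 CPM in KO at day 14. Its log2 fold change was -0.67 ± 0.09 at day 1 (adjusted p = 2.9e-05) and -1.14 ± 0.17 at day 14 (adjusted p = 6.6e-04), and the genotypes did not overlap. The deeper fall at day 14 was called at the margin (-0.45 ± 0.18, adjusted p = 0.0408). That call was lost with limma-voom (0.0521), with no filter (0.104) and with a replicate block (0.0567). It was also lost without any 1 of 7 libraries (adjusted p from 0.0591 to 0.0985). Wnt7a, its paralogue, had mean levels of 1.83 ± 0.348 CPM in WT against 1.96 ± 0.166 in KO at day 1, where no difference was called (adjusted p = 0.760), and 3.30 ± 0.879 against 0.477 ± 0.395 at day 14, where it was lower in KO (-2.76 ± 0.51, adjusted p = 0.00212, and -3.58 without KO replicate 1). Wnt2b was called at neither day (log2 fold changes -1.0 ± 0.45, adjusted p = 0.0711, and -0.35 ± 0.55, adjusted p = 0.633), on 25 to 70 reads a group. Without KO replicate 1 the day 1 difference was called (adjusted p = 0.0279).

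The leading ligand was not the same in every group. Summed over the 14 ligands per kb of exon, the level was 13.9 ± 0.44 CPM per kb (SD, n = 3) in WT against 21.9 ± 2.10 in KO at day 1, and 26.6 ± 6.38 against 11.2 ± 1.43 at day 14. In WT at day 1, Wnt7b held the largest share (39.5%), followed by Wnt9a (19.5%) and Wnt10b (14.3%). Wnt4 led in KO at day 1 (40.9%) and in WT at day 14 (41.2%), and Wnt10a led in KO at day 14 (48.8%). Wnt9a came next to the leading ligand in all 4 groups, at 18.8% to 23.1%. Exon lengths were those of GENCODE M21, which may differ from the annotation of the counts.

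**Figure D2:**
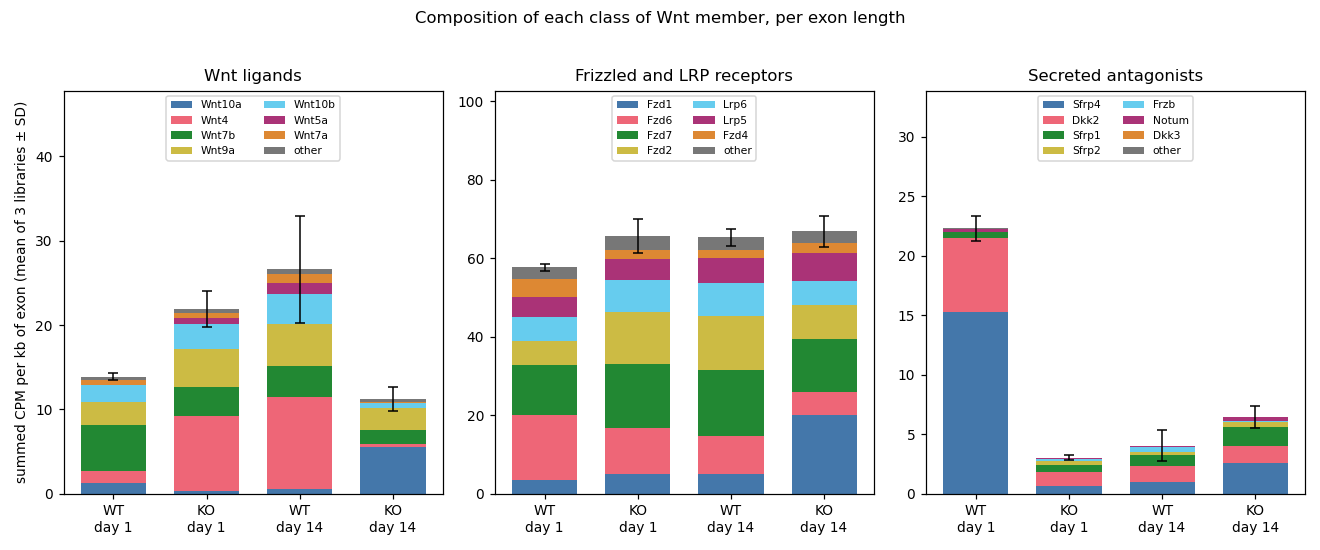
Summed levels per kb of exon in each group (bars are means of 3 libraries, error bars ± SD of the sum), split by member, for the ligands (left), receptors (middle) and antagonists (right). The ligand bar is made mostly of Wnt7b, Wnt9a and Wnt10b in WT at day 1, Wnt10a is its largest part in KO at day 14 (48.8%), the receptor totals lie between 57.7 and 66.9, and the antagonist bar of WT at day 1 (22.3) exceeds those of the other groups.

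Promoter sequences were looked at because several of these genes moved together or in opposition and because NR4A receptors bind the short motif AAAGGTCA (the NBRE). Windows from 250 bases before to 50 bases after an annotated start (RefSeq, GRCm38.p6) were found for 25 of 39 members, 14 of them among the 26 tested. The NBRE, read on both strands, was found in 1 of 32 member windows and in 1.51% of all 32851 windows. The member window was that of 1 annotated start of Tcf7. The window of another Tcf7 start, further upstream, did not hold it. A TCF/LEF motif, CTTTGAT on either strand, was in 2 of the 32 (Wnt5b and Wnt11, both too low to test) and in 3.73% of all windows. The median GC content of the member windows was 66.5%, against 52.7% over all windows. Printed 5′ to 3′ along the gene's own strand is the stretch of the Tcf7 window with the motif, in capitals. The motif, TGACCTTT, is the reverse complement of the NBRE and ends 5 bases before the start of that window's transcript. Stretches of the Wnt4 and Wnt10b windows, genes that moved opposite to Tcf7 at both days, follow and hold neither motif. The Tcf7, Wnt4 and Wnt10b stretches lie on chr11:52282596-52282711 (minus strand), chr4:137277385-137277488 (plus strand) and chr15:98778151-98778400 (minus strand). A match describes letters only and does not show binding.
Tcf7: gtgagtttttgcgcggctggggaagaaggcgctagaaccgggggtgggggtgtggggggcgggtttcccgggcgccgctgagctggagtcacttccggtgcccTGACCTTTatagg
Wnt4: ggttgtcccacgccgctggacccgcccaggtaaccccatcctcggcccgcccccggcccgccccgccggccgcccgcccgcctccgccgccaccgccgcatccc
Wnt10b: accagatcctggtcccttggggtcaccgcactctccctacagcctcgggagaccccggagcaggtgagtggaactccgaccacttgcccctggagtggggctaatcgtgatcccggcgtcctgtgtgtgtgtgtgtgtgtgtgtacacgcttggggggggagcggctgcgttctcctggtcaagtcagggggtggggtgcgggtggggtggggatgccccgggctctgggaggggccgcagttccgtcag

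Receptor levels summed to between 57.7 and 66.9 CPM per kb in the 4 groups, with different leading receptors. Of 9 tested at day 1, 5 were higher and 2 lower in KO, where 60.8% of all genes were called. Of 10 tested at day 14, 1 was higher and 4 were lower, a share near the 46.4% of all genes called there. The Frizzled genes encode the ligand-binding receptors and each can bind several ligands. Fzd1 stood at 14.9, 15.1 and 15 CPM in WT and 21.3, 24.1 and 18.7 CPM in KO at day 1, and at 18.7, 22.8 and 23.2 CPM in WT and 73.2, 90.1 and 90.1 CPM in KO at day 14. It was higher in KO at both days, by 0.52 ± 0.11 at day 1 (adjusted p = 9.7e-04) and 1.96 ± 0.13 at day 14 (adjusted p = 7.9e-06). The 3 KO libraries of day 14 exceeded all others at least 3 times, and the rise from day 1 to day 14 in KO was 1.98 ± 0.12 (adjusted p = 3.4e-09) against 0.52 ± 0.12 in WT (adjusted p = 0.00218).

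Fzd2, Fzd7 and the co-receptor Lrp6 were, like Wnt4, higher in KO at day 1 and lower at day 14, by smaller steps. Fzd2 stood at 20.8, 21.1 and 25 CPM in WT and 47.7, 51.6 and 46.4 CPM in KO at day 1, and at 42, 54.2 and 55.8 CPM in WT and 30.2, 32.6 and 33.3 CPM in KO at day 14. Its log2 fold change in KO was 1.13 ± 0.09 at day 1 (adjusted p = 2.1e-07) and -0.67 ± 0.13 at day 14 (adjusted p = 0.00249), with no overlap at either day. Unlike Wnt4, Fzd2 in KO at day 14 lay above WT at day 1 (0.52 ± 0.12, adjusted p = 0.00159). Fzd7, a relative of Fzd1 and Fzd2, stood at 57.4, 57.4 and 59 CPM in WT and 68.1, 83.5 and 70.4 CPM in KO at day 1, and at 77.1, 72.9 and 78.2 CPM in WT and 57.1, 63.3 and 63.5 CPM in KO at day 14. The step was 0.36 ± 0.08 at day 1 (adjusted p = 0.00138) and -0.32 ± 0.09 at day 14 (adjusted p = 0.0148), and the day 14 call was lost without KO replicate 1 (adjusted p = 0.0745).

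Lrp6, a co-receptor of the canonical branch, stood at 82.5, 86.6 and 82.8 CPM in WT and 119, 116 and 104 CPM in KO at day 1, and at 109, 122 and 112 CPM in WT and 83.2, 83 and 85.4 CPM in KO at day 14. WT at day 1 and KO at day 14 lay side by side (difference with an SE of 0.07, adjusted p = 0.988), and the other groups lay above them without overlap. KO was higher by 0.43 ± 0.06 at day 1 (adjusted p = 6.5e-05) and lower at day 14 (-0.46 ± 0.08, adjusted p = 0.00211). Lrp5, the paralogue of Lrp6, gave mean levels of 51.4 ± 2.95 CPM in WT against 51.9 ± 2.90 in KO at day 1, and 61.9 ± 9.74 against 69.1 ± 2.46 at day 14. No genotype difference was called for it (log2 fold changes 0.02 ± 0.07, adjusted p = 0.837, and 0.15 ± 0.12, adjusted p = 0.359).

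Fzd6, a receptor tied to hair and cell polarity, fell with both genotype and day. It stood at 78.8, 79.8 and 77.9 CPM in WT and 57.2, 59.3 and 50.2 CPM in KO at day 1, and at 57.5, 39.2 and 41.7 CPM in WT and 24.8, 28.3 and 29.4 CPM in KO at day 14. All WT libraries of day 1 were above all others and all KO libraries of day 14 below. The log2 fold change in KO was -0.50 ± 0.07 at day 1 (adjusted p = 5.0e-05) and -0.76 ± 0.16 at day 14 (adjusted p = 0.00370), and no change between the days was called (adjusted p = 0.247). Scaled by library size alone, that change was -0.46 (adjusted p = 0.0417).

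Fzd3 and Fzd4 differed by genotype at day 1 and no difference was called at day 14. Fzd3, a receptor of axon guidance and cell polarity, stood at 6.75, 4.14 and 5.55 CPM in WT and 14.5, 14.5 and 13.7 CPM in KO at day 1, and at 15.4, 7.26 and 10.1 CPM in WT and 6.27, 8.82 and 6.42 CPM in KO at day 14. It was higher in KO at day 1 (1.39 ± 0.16, adjusted p = 7.6e-06). At day 14 the WT libraries ranged from 7.26 to 15.4 CPM and overlapped with KO (-0.63 ± 0.28, adjusted p = 0.0920). The difference was called without WT replicate 2 (adjusted p = 0.0269), with no filter (0.0126) and with all 12 libraries in 1 fit (0.0429). Fzd4, known as a receptor of retinal vessel growth, stood at 29.6, 30.8 and 30.7 CPM in WT and 13, 17.5 and 17.9 CPM in KO at day 1, and at 12.4, 14.2 and 15.4 CPM in WT and 18.1, 15.7 and 15.8 CPM in KO at day 14. WT at day 1 was high and the other 9 libraries lay between 12.4 and 18.1 CPM. KO was lower at day 1 (-0.90 ± 0.11, adjusted p = 1.5e-05), the difference at day 14 was 0.23 ± 0.14 (adjusted p = 0.220), and the change between the days was called for both genes (Fzd3 -2.0 ± 0.34, adjusted p = 1.2e-04; Fzd4 1.15 ± 0.18, adjusted p = 7.2e-05).

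Fzd5 had group means from 14.5 to 16.8 CPM and no call in any of the 7 comparisons (KO against WT -0.13 ± 0.10 at day 1 and 0.07 ± 0.15 at day 14). Fzd8 was low, from 0.234 ± 0.288 CPM in KO at day 1 to 1.91 ± 0.0883 in KO at day 14, and between genotypes was tested at day 14 only, without a call (1.10 ± 0.46, adjusted p = 0.0796). Fzd8 was called without WT replicate 2 (adjusted p = 0.00989), with limma-voom (0.0371) and with no filter (0.0410). Summed over the 11 receptors the level was 57.7 ± 1.01 CPM per kb in WT against 65.7 ± 4.33 in KO at day 1, and 65.4 ± 2.21 against 66.9 ± 3.94 at day 14. Within these totals Fzd6 (28.4%) and Fzd7 (22.2%) led in WT at day 1. Fzd7 and Fzd2 led in KO at day 1 (24.9% and 20.2%) and in WT at day 14 (25.7% and 21.2%), and Fzd1 (30.1%) and Fzd7 (20.2%) in KO at day 14.

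**Figure D3:**
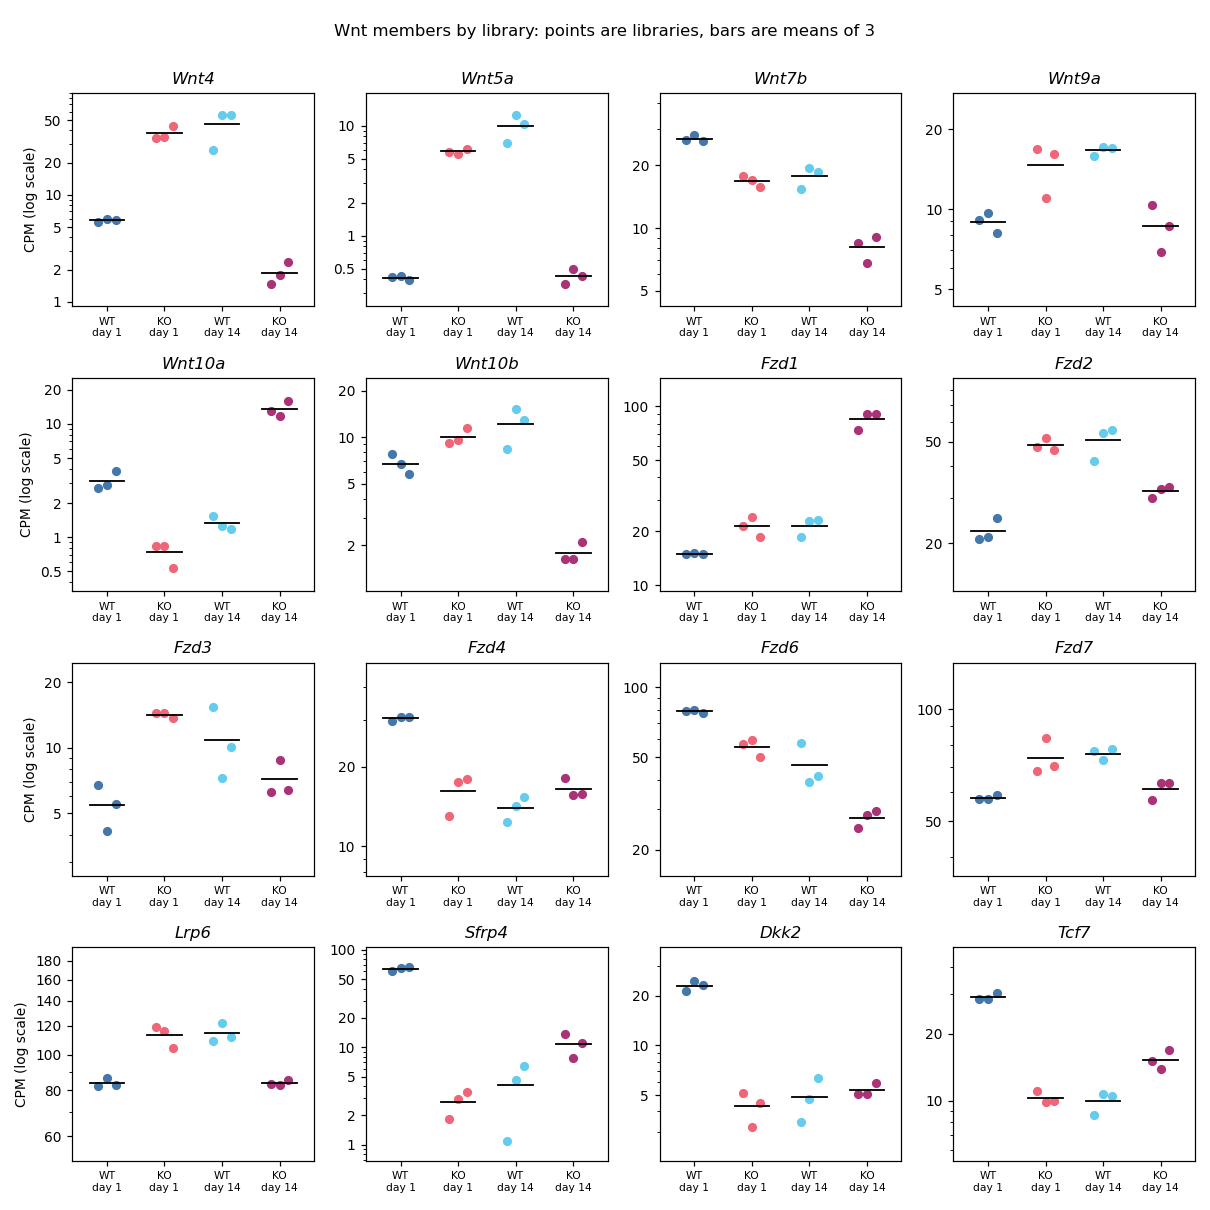
Levels of the 16 members with a called KO against WT difference at either day and a mean of at least 5 CPM in some group, in CPM on log axes; points are the 12 libraries and bars the means of 3. Wnt4, Wnt5a, Fzd2, Fzd7 and Lrp6 are low in WT at day 1 and in KO at day 14, and Sfrp4, Dkk2, Fzd4 and Tcf7 are highest in WT at day 1.

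Summed over the secreted antagonists, the level was highest in WT at day 1, where Sfrp4 and Dkk2 were high. Of 4 tested at day 1, 1 was higher and 2 were lower in KO, where 60.8% of all genes were called. Of 5 tested at day 14, 1 was higher and 1 lower, a share near the 46.4% of all genes called there. Sfrp4, a ligand-binding antagonist with a known part in bone and phosphate balance, stood at 60.1, 65.2 and 66 CPM in WT and 1.83, 2.95 and 3.51 CPM in KO at day 1, and at 1.10, 4.61 and 6.48 CPM in WT and 13.6, 7.69 and 11.2 CPM in KO at day 14. The WT libraries of day 1 were at least 4 times above any other library. The log2 fold change in KO was -4.50 ± 0.14 at day 1 (adjusted p = 5.4e-11), and Sfrp4 had the largest fall of any member there. At day 14 it was higher in KO (1.41 ± 0.49, adjusted p = 0.0435) with no overlap, a call near the threshold. It was lost without any 1 of the KO libraries (adjusted p = 0.150, 0.0582 and 0.105) or WT replicate 2 (0.0824), and with library size alone as the scaling (0.0509).

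Dkk2, which binds LRP co-receptors, stood at 21.4, 24.4 and 23 CPM in WT and 5.16, 3.23 and 4.48 CPM in KO at day 1, and at 3.45, 4.75 and 6.39 CPM in WT and 5.11, 5.08 and 5.93 CPM in KO at day 14. It too was high in WT at day 1 and between 3.23 and 6.39 CPM in the 9 other libraries. KO was lower at day 1 (-2.41 ± 0.15, adjusted p = 1.9e-08), and the difference at day 14 was 0.13 ± 0.25 (adjusted p = 0.692). The change of the KO effect was 5.94 ± 0.53 for Sfrp4 (adjusted p = 1.6e-07) and 2.56 ± 0.29 for Dkk2 (adjusted p = 2.5e-06).

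Sfrp1, a further ligand-binding antagonist, gave means of 2.45 ± 0.389 CPM in WT against 2.60 ± 0.780 in KO at day 1, and 4.29 ± 2.02 against 6.66 ± 0.482 at day 14, with no genotype call (0.09 ± 0.27, adjusted p = 0.779, and 0.63 ± 0.34, adjusted p = 0.167, which was 0.0406 with no filter). Sfrp2 had 0 reads in all 3 WT libraries of day 1, which allows up to 0.0388 CPM over the group, and 10, 20 and 14 reads in the KO libraries. Taking the KO reads as exact, it was thus at least 20.1-fold higher in KO (edgeR adjusted p = 1.1e-04). At day 14 it had 10, 7 and 9 reads in WT and 26, 9 and 18 in KO. Relative to library size the genotypes did not overlap there (the lowest KO library, at 0.635 CPM, lay above all 3 WT libraries), and the difference was not called (1.14 ± 0.44, adjusted p = 0.0602). Frzb, known from cartilage, had 0 reads in WT at day 1, 15, 4 and 9 in KO at day 1, 36, 16 and 24 in WT at day 14 and 5, 2 and 7 in KO at day 14. It was not tested at day 1, and at day 14 it was lower in KO (-2.27 ± 0.45, adjusted p = 0.00326). Notum, an enzyme that removes the lipid from Wnt ligands, had 18, 13 and 11 reads in WT against 0, 3 and 1 in KO at day 1, and 3, 4 and 1 against 16, 6 and 14 at day 14. It was tested over the 12 libraries only, where the KO effect changed upward (5.07 ± 1.02, adjusted p = 5.6e-04, and 6.31 without KO replicate 2 of day 1).

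Summed per kb, the antagonists stood at 22.3 ± 1.07 CPM per kb in WT against 3.02 ± 0.21 in KO at day 1, and at 4.05 ± 1.33 against 6.47 ± 0.94 at day 14. Sfrp4 (68.5%) and Dkk2 (27.8%) made up nearly all of the sum in WT at day 1. In KO at day 1 Dkk2 (38.3%) came before Sfrp4 (21.9%), and in KO at day 14 Sfrp4 (40.0%) came before Sfrp1 (23.6%). Marker counts are given beside 60.8% of all genes called at day 1 (30.6% higher, 30.2% lower) and 46.4% at day 14 (22.7% higher, 23.7% lower). Among adventitial fibroblast markers, 6 of 7 tested were lower and 1 higher in KO at day 1. At day 14, 4 of 6 were higher and 1 lower. Of the mesothelial markers, 2 of 4 tested were lower and 1 higher in KO at day 1, and 4 of 4 were lower at day 14, with summed levels of 402 to 409 CPM in WT against 359 to 367 in KO at day 1, and 279 to 418 against 78.7 to 82.5 at day 14. The fibroblast marker Dpt had 0 reads in KO at day 1 and Lum 0 reads in KO at day 14. The part of these cell types in the Wnt results was not tested.

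Tcf7 and Lef1 encode the DNA-binding partners of beta-catenin, and Axin2 is a feedback inhibitor and a common readout of the canonical branch. Tcf7 stood at 28.6, 28.6 and 30.5 CPM in WT and 11, 9.84 and 9.94 CPM in KO at day 1, and at 8.60, 10.7 and 10.5 CPM in WT and 15.1, 13.9 and 16.8 CPM in KO at day 14. It was high in WT at day 1, lower in KO at day 1 (-1.50 ± 0.10, adjusted p = 2.6e-08) and higher in KO at day 14 (0.61 ± 0.15, adjusted p = 0.0107), with no overlap at either day. The day 14 call was lost without KO replicate 3 (adjusted p = 0.0653). Lef1 means were 2.45 ± 0.284 CPM in WT against 3.74 ± 0.975 in KO at day 1, and 3.34 ± 0.720 against 2.66 ± 0.311 at day 14. The day 1 difference was called at the margin (0.61 ± 0.24, adjusted p = 0.0410) and lost with limma-voom (adjusted p = 0.0516) and without any library but KO replicate 3 (adjusted p from 0.0683 to 0.144), and none was called at day 14 (-0.35 ± 0.26, adjusted p = 0.294). Axin2 had 28 reads in WT against 22 in KO at day 1, and 2 against 6 at day 14, too few to be tested.

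The other members were too low for a test in the main fits. Dkk3, Dkk4, Fzd9, Sfrp5, Wif1, Wnt1, Wnt5b, Wnt6, Wnt8b, Wnt11 and Wnt16 had between 0 and 37 reads in any group. A level of 0 reads over a group allows up to 0.0388 CPM in WT against 0.0531 CPM in KO at day 1, and 0.0550 against 0.0610 CPM at day 14, counting error only. At day 1 Fzd9 had 0 reads in WT and 20 in KO, while Wnt16 had 17 in WT and 0 in KO. None of these was tested in the main fits, and such read numbers leave wide counting error. Not tested, here and above, means that a member did not pass the filter of the main fits. With no filter, 22 members were called at day 1 against 18, and 19 at day 14 against 15. Some of these had not passed that filter, and they are not named here.

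**Figure D4:**
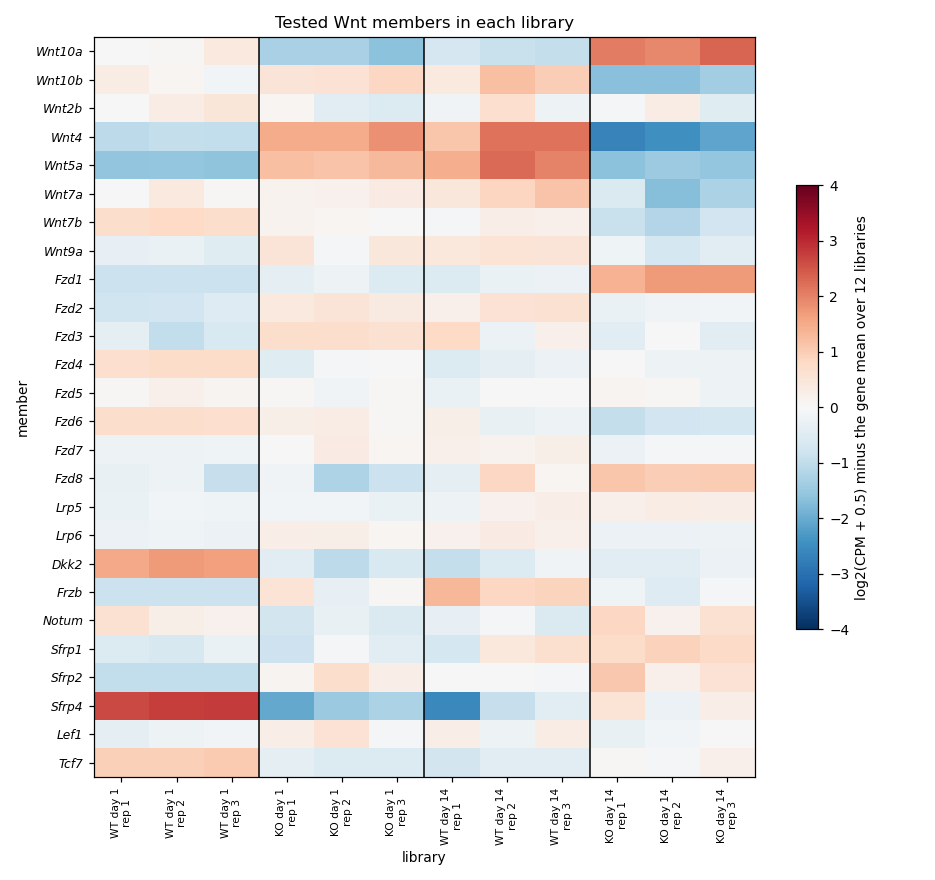
Levels of the 26 tested members in each of the 12 libraries, as log2(CPM + 0.5) minus the gene's mean over all libraries; red is above and blue below that mean, and black lines part the groups. The KO libraries of day 1 and the WT libraries of day 14 share colours for most members, and WT replicate 1 of day 14 is paler than its replicates for Wnt4 and Wnt5a and bluer for Sfrp4.

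Between days the genotypes moved differently. In WT, 21 of 26 members were called between day 14 and day 1, 13 higher and 8 lower at day 14, where 51.9% of all genes were called, 25.8% higher and 26.1% lower. In KO, 19 were called, 8 higher and 11 lower, where 54.8% of all genes were called, 26.9% higher and 27.9% lower. Leaving out single libraries gave 18 to 23 members and 7104 to 9067 genes in WT, and 18 to 20 members and 7605 to 10017 genes in KO. The WT calls of Lrp5, Sfrp1 and Notum (edgeR adjusted p = 0.0432, 0.0492 and 0.0340) were lost under several settings. Wnt4 rose by 2.98 ± 0.24 in WT and fell in KO (-4.31 ± 0.29). Wnt5a rose by 4.56 ± 0.26 in WT and fell in KO (-3.76 ± 0.29), and Wnt10a fell in WT (-1.23 ± 0.24) and rose by 4.21 ± 0.25 in KO. Frzb, with 0 reads in WT at day 1, was at least 35.9-fold higher in WT at day 14, taking the day 14 reads as exact. Each day has a table of its own, and an effect of day cannot be told apart from a batch effect of table here. Any shift shared by all libraries of a table drops out of the interaction test.

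KO at day 1 and WT at day 14 differed little for the Wnt genes. Between them 1 of 26 members was called, Wnt5a, lower in KO at day 1 (-0.75 ± 0.20, adjusted p = 0.0306), where 9.78% of all genes were called, 3.89% higher and 5.89% lower. Nr4a3 itself differed by -6.82 ± 0.21 (adjusted p = 4.8e-11). The count of members depends on WT replicate 1: without it 10 of 27 members were called, 8 lower in KO at day 1 (Wnt4, Wnt5a, Wnt7a, Wnt10b, Lrp5, Fzd8, Sfrp1 and Sfrp4) and 2 higher (Fzd3 and Fzd6), and 33.7% of all genes. Without any 1 of the other 5 libraries of these groups no member was called. KO at day 14 and WT at day 1 differed for 17 of 26 members, 8 higher and 9 lower in KO, where 50.7% of all genes were called, 24.6% higher and 26.1% lower. The comparisons share libraries and are given side by side only.

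The genes that follow in the pathway were taken from lists described by counts, beside 60.8% of all genes called at day 1 (30.6% higher, 30.2% lower) and 46.4% at day 14 (22.7% higher, 23.7% lower). Of genes for ligand secretion and co-receptors, 3 of 8 tested were higher and 3 lower in KO at day 1, and 3 of 7 higher and 0 lower at day 14 (3 of 8 and 1 without WT replicate 1). Wls, the carrier that brings Wnt proteins to the cell surface, stood at 765 ± 18.9 CPM in WT against 328 ± 3.06 in KO at day 1 (-1.22 ± 0.05, adjusted p = 5.1e-10) and at 304 ± 17.7 against 419 ± 14.2 at day 14 (0.45 ± 0.08, adjusted p = 0.00202). Porcn, the enzyme that attaches the lipid to Wnt proteins, was lower in KO at day 1 (-1.04 ± 0.13, adjusted p = 1.4e-05) and not called at day 14 (0.04 ± 0.26, adjusted p = 0.912). The R-spondin receptor genes Lgr6 (at day 1, 2.51 ± 0.13, adjusted p = 2.6e-09) and Lgr4 (at day 14, 1.17 ± 0.09, adjusted p = 2.1e-05) were higher in KO, and so was Ptk7, a co-receptor of the polarity branch, at day 1 (0.34 ± 0.11, adjusted p = 0.0157). These 3 genes were not called at the other day (Lgr6 -0.11 ± 0.10, Lgr4 0.08 ± 0.08, Ptk7 -0.15 ± 0.21; adjusted p = 0.388, 0.406 and 0.601).

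Of 7 other inhibitors tested, 4 were higher and 2 lower in KO at day 1, and 3 higher and 4 lower at day 14. Rnf43, which removes Frizzled receptors from the cell surface and is itself a canonical target, had 6 reads in WT and 505 in KO at day 1, with a log2 fold change of 6.75 ± 0.35 (adjusted p = 3.7e-09), and was lower in KO at day 14 (-3.98 ± 0.37, adjusted p = 5.2e-05). Apcdd1, a membrane inhibitor, ran opposite, from 31.5 ± 1.51 CPM in WT to 13.4 ± 1.26 in KO at day 1 and from 11.3 ± 1.48 to 58.2 ± 2.33 at day 14 (-1.22 ± 0.10 and 2.34 ± 0.12, adjusted p = 2.2e-07 and 2.3e-06). Kremen1, a DKK receptor, shared that order (-0.50 ± 0.07 and 0.71 ± 0.14, adjusted p = 2.2e-05 and 0.00274). Nkd2, which binds Dishevelled, was higher in KO at day 1 (3.41 ± 0.32, adjusted p = 1.1e-06) and lower at day 14 (-2.42 ± 0.66, adjusted p = 0.0153). Igfbp4 moved the same way (0.54 ± 0.09 and -2.59 ± 0.15, adjusted p = 1.3e-04 and 3.5e-06).

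Of 17 intracellular signalling genes, 5 were higher and 5 lower in KO at day 1, and 4 higher and 5 lower at day 14. The casein kinase genes Csnk1e (0.61 ± 0.07 and -0.82 ± 0.09) and Csnk1a1 (-0.48 ± 0.06 and 0.54 ± 0.09) changed sign in opposite ways. Frat2, a GSK3-binding protein, was lower in KO at day 14 (-2.87 ± 0.29, adjusted p = 7.8e-05) and Apc of the beta-catenin destruction complex was higher (0.44 ± 0.10), with no call at day 1 for either (0.19 ± 0.17 and 0.08 ± 0.06, adjusted p = 0.343 and 0.259). Gsk3a was higher at day 1 (0.49 ± 0.08) and not called at day 14 (-0.08 ± 0.10, adjusted p = 0.569), and Btrc was lower at day 1 (-0.68 ± 0.07) and higher at day 14 (0.31 ± 0.11, adjusted p = 0.0427). Without WT replicate 1 this list had 4 higher and 7 lower at day 14. Of 12 nuclear partners, 1 was higher and 6 lower at day 1, and 6 higher and 2 lower at day 14 (6 and 3 without WT replicate 1). The corepressor Tle2 (-1.02 ± 0.11 and 1.82 ± 0.23) and the repressive factor Tcf7l1 (-0.86 ± 0.15 and 1.29 ± 0.26) moved as Tcf7 did, and Tle3 moved the other way (0.35 ± 0.10 and -0.69 ± 0.10). Aes was lower at both days (-0.43 ± 0.06 and -0.60 ± 0.11).

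Of 13 tested genes listed as canonical targets, 6 were higher and 4 lower in KO at day 1, and 4 higher and 5 lower at day 14, so the list had no common direction. Myc was higher at day 1 (0.96 ± 0.12, adjusted p = 1.4e-05) and lower at day 14 (-0.61 ± 0.19, adjusted p = 0.0297). Wisp1 was lower at day 1 (-0.85 ± 0.08) and higher at day 14 (0.85 ± 0.14), and Cyr61 was higher at day 1 (0.40 ± 0.08, adjusted p = 7.8e-04) and lower at day 14 (-2.01 ± 0.22, adjusted p = 1.4e-04). The polarity and calcium branch, which Wnt5a serves, had 1 of 18 genes higher and 11 lower in KO at day 1 (median log2 fold change -0.40, against 0.01 over all genes), and 8 higher and 3 lower at day 14 (median 0.24, against -0.002). Plcb1, a phospholipase of the calcium route, fell in KO at day 1 (-1.97 ± 0.12, adjusted p = 2.5e-08) and rose at day 14 (3.46 ± 0.15, adjusted p = 9.7e-07). Nfatc1 was likewise lower at day 1 and higher at day 14 (-0.97 ± 0.10 and 0.73 ± 0.11), and Daam2 was lower at both days (-1.09 ± 0.16 and -1.25 ± 0.20). Nfatc2 was lower (-2.23 ± 0.22) and Rac1 higher (0.46 ± 0.07) at day 1, with no call at day 14 (-0.71 ± 0.41 and -0.21 ± 0.08, adjusted p = 0.189 and 0.0575), and Prickle1 was lower at day 14 (-1.0 ± 0.18) with no call at day 1 (0.09 ± 0.17, adjusted p = 0.673). Without WT replicate 1, the polarity list had 8 higher and 5 lower at day 14, the target list 4 and 6.

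**Figure D5:**
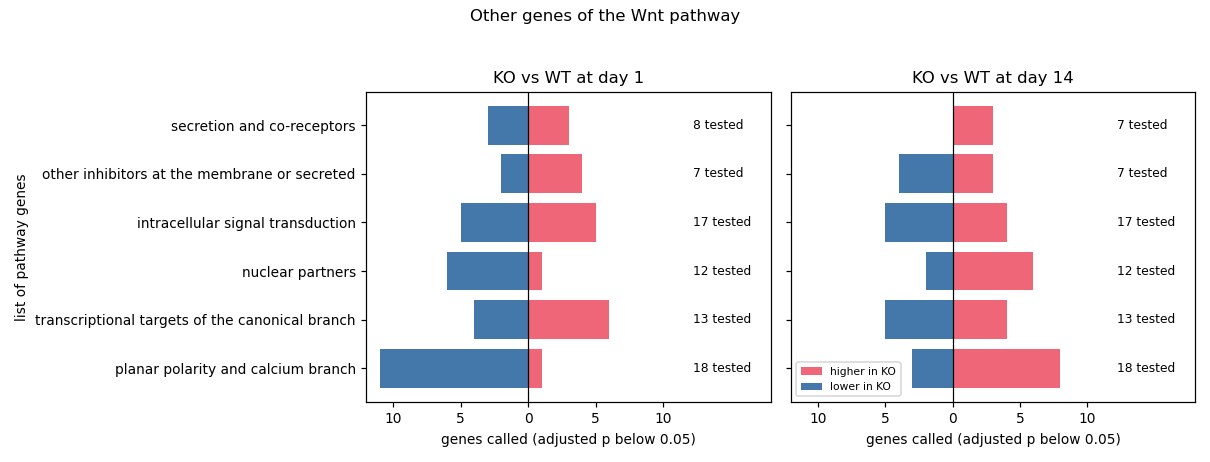
Number of genes called in KO against WT (edgeR adjusted p below 0.05) in 6 lists of other Wnt pathway genes, at day 1 (left) and day 14 (right); bars to the right of 0 are genes higher and bars to the left genes lower in KO, with the number tested at the side. The polarity and calcium list has 11 lower and 1 higher at day 1 and 8 higher and 3 lower at day 14, and the canonical target list is mixed at both days.

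The genes whose levels ran most like a member across the 12 libraries were ranked by Pearson's r of log2(CPM + 0.5) over 10156 genes whose mean log2 CPM was 3 or more, as a description: the libraries fall in 4 groups, so r mostly reflects group means. Nearest to Wnt4 were Parm1 (r = 0.998), Atg9b (0.997) and Cdc42bpg (0.994). Nearest to Lrp6 were Usp30 (0.988), Smoc1 (0.984) and Col20a1 (0.983), and nearest to Sfrp4 were Lrrc17 (0.994), Scd1 (0.990) and Slc25a1 (0.988).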

How the data were processed

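The authors deposited unnormalised whole-number counts of reads for 12 libraries, keyed by gene name, with a table per day. The genome build is mm9, per the submitters' processing notes. Aligner, counter, annotation and strand setting were not given in the sources used here. Reads shared by overlapping genes or close paralogues may therefore be split between them. RNA was extracted with TRIzol for NEBNext Ultra libraries, per the labels' protocols. Column names gave genotype (CTR read as WT) and replicate, and the table gave the day. Repeated lines were removed (43 at day 1, 53 at day 14) and 2 names with differing counts were left out of each table, which left 28447 and 30809 names. Of these, 98.2% and 98.1% were GENCODE M21 symbols.

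Counts were tested with edgeR 4.0.16 under R 4.3.3: filterByExpr, TMM scaling and the quasi-likelihood F test, with Benjamini-Hochberg adjusted p-values over all genes tested and calls below 0.05. KO against WT was fitted on the 6 libraries of each day. The other contrasts came from 1 fit of 12 libraries. The SE was taken as log2 fold change divided by the root of F. CPM values use the 12-library TMM scaling. A fold against 0 reads is a bound against 3 reads over the group, without the counting error of the higher group. Full values are given for members called at either day with a mean of 5 CPM in some group. From each list, up to 2 rising and 2 falling called genes of largest change, at the same level, are named. The marker Fabp4 and the single smooth muscle markers were named after their values were seen. The member rule reads gene symbols alone, but the choice of this gene family and of the lists was made with earlier results of these data known.

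Alternatives were RLE size factors, scaling by library size alone, DESeq2 1.42.0, limma-voom (limma 3.58.1), no filter, 1 CPM in 3 libraries, all 12 libraries in 1 fit for the contrasts within a day, the replicate number as a block, and leaving out each library. List counts without WT replicate 1 of day 14 were added after seeing the data. The scripts were tested on simulated data. Promoter windows are from RefSeq (GRCm38.p6), a build other than that of the counts, so no other positions are given.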

Additional observations from a re-analysis of the deposited data

Results flagged for a closer look

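The KO effect differed between day 1 and day 14, by the interaction test of edgeR, for 20 members. Values are the log2 fold change of KO against WT at day 14 minus that at day 1, with all adjusted p-values below 0.05. The change was upward for Sfrp4 (5.94), Wnt10a (5.43), Notum (5.07), Dkk2 (2.56), Tcf7 (2.13), Fzd1 (1.46) and Fzd4 (1.15). It was downward for Wnt5a (-8.32), Wnt4 (-7.30), Wnt10b (-3.32), Wnt7a (-2.84), Fzd3 (-2.0), Fzd2 (-1.78), Wnt9a (-1.65), Lef1 (-0.94), Lrp6 (-0.87), Fzd7 (-0.67) and Wnt7b (-0.45). The fitted values for Frzb (-8.58) and Sfrp2 (-5.81) rest on 0 reads in WT at day 1, depend on the prior count and are no bounds. Notum rests on 4 reads in KO at day 1. Such differences were called for 60.1% of all genes.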

How the results depend on the processing

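Over the alternatives, 17 to 22 members were called at day 1, 13 to 19 at day 14 and 18 to 21 in the interaction test. Over all genes, 8159 to 9990, 5185 to 9209 and 9030 to 10501 were called. The number of members tested differed between settings, and the counts of 22 and 19 came with no filter, where more were tested. For KO at day 1 against WT at day 14, 2 members were called with limma-voom. Leaving out single libraries gave 0 to 10 members and 576 to 5538 genes in all there, highest without WT replicate 1 of day 14. The cause was not tested. Scaling by library size alone shifted the median of all genes by 0.12 at day 1, -0.21 in the interaction and 0.13 between days in WT, and the share of calls that were higher went from 50.4% to 61.7%, from 49.2% to 37.9% and from 49.7% to 62.7%.

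Signs turned only for values without a call. Lrp5 gave -0.0052 at day 1 with no filter and -0.031 to 0.072 leaving out single libraries. Its interaction was -0.062 with library size alone and -0.0019 to 0.21 leaving out single libraries. The ranges without single libraries were -0.13 to 0.29 for Sfrp1 at day 1, and at day 14 -0.092 to 0.39 for Dkk2, -0.042 to 0.16 for Fzd5 and -0.75 to 0.19 for Wnt2b. Replicate numbers did not pair the libraries (correlations of same-numbered deviations from -0.0605 to 0.197). With the number as a replicate block, 17 members were called at day 1, 15 at day 14 and 19 in the interaction. Over all genes, 9090, 6714 and 9524 were called with that block. Lef1 lost its day 1 call there (adjusted p = 0.0615). Calls for Lef1 and the Wnt7b interaction were lost under several settings. Depth limits what can be said of members near or below 1 CPM.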
